A study of Mus musculus with 7 samples.

Results

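The Myc, Max and Mlx network is a set of transcription factors with a basic helix-loop-helix leucine zipper that act as dimers. Its 10 members measured here were Myc, Mycn, Max, Mxd1, Mxd3, Mxi1, Mnt, Mlx, Mlxip and Mlxipl, taken by gene symbol from the 46603 genes of the count tables. All 10 had enough reads to be tested. As background, Myc and Mycn dimerize with Max and activate genes of growth, ribosome production and cell division, while the Mxd proteins, Mxi1 and Mnt compete for Max and recruit the Sin3 corepressor to the same DNA element, the E-box CACGTG. Mlx is a relative of Max that partners with Mlxip (MondoA) and Mlxipl (ChREBP), both of which enter the nucleus when glucose metabolites are plentiful. Mlxipl is best known in liver and fat, where it drives lipid synthesis.

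Nuclear myosin 1 (NM1) is an isoform of the motor protein gene Myo1c. The KO group was mouse embryonic fibroblasts (MEFs) in which NM1 had been deleted with CRISPR/Cas9, and the KO+NM1 group was the same deleted cells given NM1 with HA and V5 tags by lentivirus and then selected with Neomycin as single clones. Both groups therefore carried the deletion, and no wild type tumor was among the libraries. Cells were injected under the skin of female Balb/c nude mice aged 16 weeks, with 5 mice per group. Per the labels, tumors were taken after 30 days, while the study's methods give an earlier day. The study's results name the mammary pads as the site of injection. Nude mice lack a thymus but keep other host cells, including B cells and macrophages. Per the labels, a tumor of each group was cut into 4 equal pieces, and 3 KO and 4 KO+NM1 pieces were sequenced, so the spread between pieces holds no difference between mice or clones. In such bulk RNA, fewer cells of a type and less RNA per cell cannot be told apart, and reads of injected and host cells are mixed.

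Total counts were 24088309 to 28326568 per library, and 3 counts, the most that a count of 0 allows, came to 0.106 to 0.125 CPM of the library total. CPM stands for counts scaled to a fixed library total, and all levels below are also normalized for composition by the TMM method. Myo1c, whose counts do not separate the NM1 isoform, was 289 to 313 CPM in KO and 382 to 438 CPM in KO+NM1 (log2 fold change -0.43, SE 0.13, edgeR adjusted p = 0.031). KO+NM1 piece 1 stood apart: its log2 CPM correlated at 0.855 to 0.861 with the other KO+NM1 pieces, which correlated at 0.977 to 0.986 with each other. The pieces also differed in markers of other cell types. White adipocyte markers summed to 51.5 to 213 CPM in KO and 4256 to 32191 CPM in KO+NM1 (9 of 9 fell), skeletal muscle markers to 2152 to 18473 and 7.66 to 24.1 CPM (8 of 8 rose, and Cacna1s had 0 counts in all KO+NM1 pieces), and proliferating cell markers to 1850 to 2412 and 71.7 to 197 CPM (7 of 7 rose). Markers of fibroblasts, the labelled origin of the injected cells, were detected in every piece at 7204 to 13003 and 2863 to 13056 CPM in sum (5 of 9 fell).

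The DNA element the network shares was looked for in RefSeq promoter windows of the members (GRCm38.p6, from 250 bases before to 50 after the gene start), which matched 9 of the 10 members. Myc had no match. The E-box CACGTG, which reads the same on both strands, was present for 4 of those 9 members, Max, Mlx, Mlxipl and Mnt. The share was 8.09% of all 27025 genes with a window and 11% of the 11942 tested genes with a window. Counted by window, it was 4 of 12 for the members, against 7.15% of all 32851 windows. A match describes the letters only, and sites of another sequence or outside the windows were not looked for. The sites are shown because the factors that bind this element are the subject of the comparison, each 5′ to 3′ on the gene's strand with the E-box in capitals, at chr12:76962234-76962263 (minus strand), chr11:101087238-101087267 (plus), chr5:135089780-135089809 (plus) and chr11:74830789-74830818 (plus) in this order.
Max: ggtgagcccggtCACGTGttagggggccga
Mlx: ggtgggttggatCACGTGactgagcctcgc
Mlxipl: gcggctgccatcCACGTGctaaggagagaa
Mnt: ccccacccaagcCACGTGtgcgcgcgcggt
These E-boxes began 3 bases (Max), 40 bases (Mlx), 98 bases (Mlxipl) and 123 bases (Mnt) upstream of the RefSeq start, so that the Max site ran across it. In the GENCODE annotation the start of Max is at chr12:76962201, downstream of the whole stretch shown.

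Between the tumors, Myc and Mxd3 rose in KO and Mlxipl fell, and no other member passed an adjusted p of 0.05. By both an adjusted p under 0.05 and a 2-fold change, 2 of 10 members were higher in KO and 1 was lower, where 17.1% of all 16887 tested genes were higher and 20.3% lower. With the adjusted p alone the member counts were the same, against 25.7% of all genes higher and 24.5% lower. The pieces of the groups did not overlap for 3 members higher in KO (Myc, Mxd3 and Mlx, against 30.5% of all genes) and for 1 lower (Mlxipl, against 26.4%). Without KO+NM1 piece 1 the same 3 members passed both thresholds. The median log2 fold change of the members was -0.28, and that of all tested genes was 0.00.

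**Figure D1:**
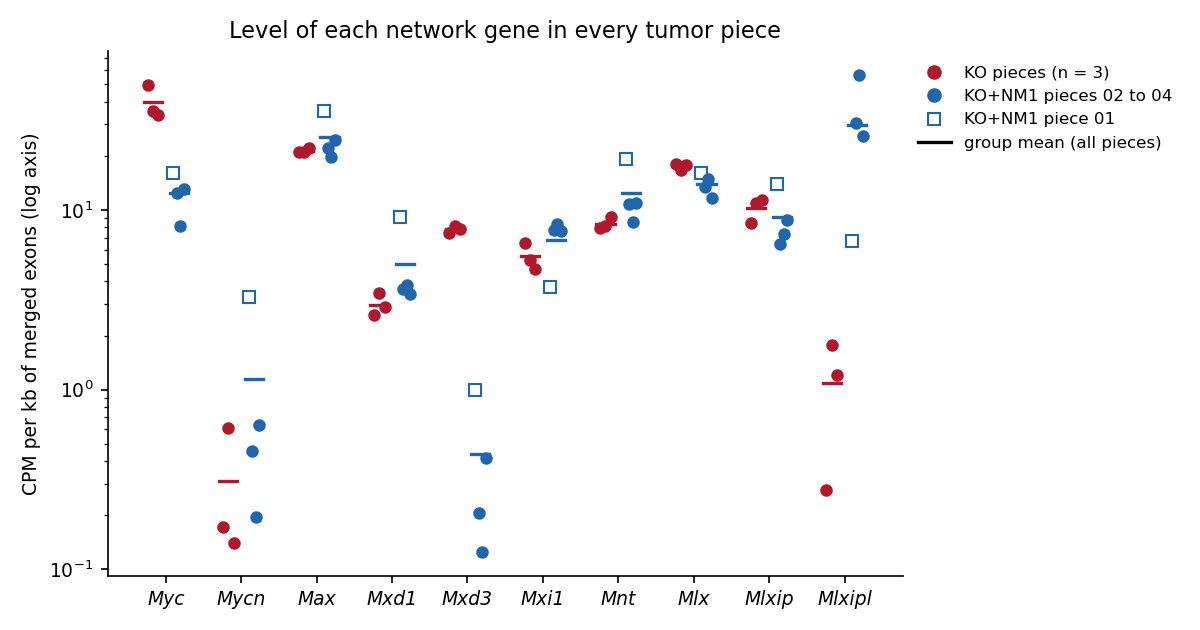
Level of each of the 10 members in every tumor piece, as CPM per kilobase of merged exons on a log axis, with the 3 KO pieces in red, the 4 KO+NM1 pieces in blue (piece 1 as an open square) and group means as lines. Myc and Mxd3 lie higher in all KO pieces, and Mlxipl lies higher in all KO+NM1 pieces. Within KO+NM1, piece 1 is the lowest for Mxi1 and Mlxipl and the highest for all other members.

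Myc (ENSMUSG00000022346, GRCm38 chr15:61985391-61990374, plus strand), the main activator of the network, was 135, 96.6 and 92.3 CPM in KO pieces 1 to 3 and 43.8, 33.9, 22.2 and 35.7 CPM in KO+NM1 pieces 1 to 4. Every KO piece was above every KO+NM1 piece, with KO piece 1 the highest and KO+NM1 piece 3 the lowest. The group means were 108 ± 23.2 CPM (SD, n = 3) and 33.9 ± 8.93 CPM (SD, n = 4), and the log2 fold change was 1.67 (SE 0.25, 95% interval 1.07 to 2.27, edgeR quasi-likelihood test, adjusted p = 0.00205). The exact two-sided permutation test of its log2 CPM gave p = 0.0286, the smallest that 35 splits of 3 against 4 allow.

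Mycn (ENSMUSG00000037169, chr12:12936093-12941914, minus strand), a paralogue known from the developing nervous system, was 0.567, 2.02 and 0.462 CPM in KO and 10.8, 1.51, 0.642 and 2.1 CPM in KO+NM1. The high value came from KO+NM1 piece 1, at 295 counts, where the other 6 pieces had 13 to 58 counts, and the groups overlapped. The log2 fold change was -1.89 (SE 1.02, interval -4.30 to 0.52, edgeR adjusted p = 0.183), and without that piece it was -0.61 (edgeR adjusted p = 0.439). B and plasma cell markers were also high in that piece, at 2863 CPM in sum against 2.84 to 11.1 CPM in the remaining KO+NM1 pieces and 5.8 to 30.7 CPM in KO, and their part in the Mycn level was not tested.

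Max (ENSMUSG00000059436, chr12:76937269-76962201, minus strand), the partner that Myc, the Mxd proteins and Mnt share, was 75.8, 76.0 and 79.1 CPM in KO and 128, 79.8, 71.1 and 87.8 CPM in KO+NM1. The groups overlapped, and KO+NM1 piece 1 was again the highest. The log2 fold change was -0.25 (SE 0.21, edgeR adjusted p = 0.358), with a 95% interval from -0.76 to 0.25, which holds no 2-fold change in either direction.

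Of the 4 repressors among the members, Mxd3 passed the test over all 7 pieces. Mxd3 (ENSMUSG00000021485, chr13:55325168-55329823, minus strand), a Max partner known from cycling cells, was 17.6, 19.4 and 18.6 CPM in KO and 2.37, 0.488, 0.296 and 0.987 CPM in KO+NM1. The KO pieces lay close together, while the KO+NM1 pieces held only 65, 12, 6 and 24 counts and varied with KO+NM1 piece 1 on top. The fitted difference was 17.7-fold (log2 fold change 4.14, SE 0.64, interval 2.64 to 5.65, edgeR adjusted p = 0.0027, exact two-sided permutation p = 0.0286). Of its 2369 exon bases, 105 (4.43%) were shared with Prelid1 on the other strand, which was also higher in KO (log2 fold change 1.09, edgeR adjusted p = 0.00109), and whether counting used strand is not given in the sources used here.

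Proliferating cell markers moved with Mxd3. Relative to their sum, Mxd3 was 0.731, 1.05 and 0.978 CPM per 100 CPM of markers in KO and 1.2, 0.575, 0.414 and 1.02 in KO+NM1, so that on this scale the groups overlapped. Myc was lower in every KO piece on the same scale, at 5.58, 5.22 and 4.86 CPM per 100 CPM of markers in KO and 22.3, 39.9, 30.9 and 37 in KO+NM1. The part of the markers' cells in either level was not tested.

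The other repressors among the members did not pass the test over all 7 pieces. Mxd1 (ENSMUSG00000001156, chr6:86647042-86669161, minus strand), which is known to rise as cells leave the cycle and differentiate, was 18.3, 24.4 and 20.3 CPM in KO and 64.6, 25.8, 27.0 and 24.0 CPM in KO+NM1. KO+NM1 pieces 2 to 4 lay within or a little above the range of the KO pieces and piece 1 was far above them. The log2 fold change was -0.75 (SE 0.38, interval -1.65 to 0.15, edgeR adjusted p = 0.148). Mnt (ENSMUSG00000000282, chr11:74830920-74845725, plus strand), the most widely expressed Max-bound antagonist of Myc, was 36.5, 37.5 and 42.1 CPM in KO and 88.7, 50.0, 39.6 and 50.9 CPM in KO+NM1 (log2 fold change -0.57, SE 0.28, interval -1.22 to 0.08, edgeR adjusted p = 0.132). Mxi1 (ENSMUSG00000025025, chr19:53310518-53375810, plus strand), also called Mxd2, was 44.8, 36.0 and 32.2 CPM in KO and 25.5, 52.5, 56.7 and 52.3 CPM in KO+NM1. Here KO+NM1 piece 1 was the lowest of all 7 pieces and the other 3 KO+NM1 pieces were above every KO piece (log2 fold change -0.31, SE 0.29, interval -0.99 to 0.37, edgeR adjusted p = 0.407). Without KO+NM1 piece 1, all 3 passed the adjusted p below a 2-fold change, at -0.41 for Mxd1 (edgeR adjusted p = 0.0353), -0.40 for Mnt (edgeR adjusted p = 0.0201) and -0.64 for Mxi1 (edgeR adjusted p = 0.00397).

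Mlx (ENSMUSG00000017801, chr11:101087277-101092207, plus strand), the partner on which Mlxip and Mlxipl depend for DNA binding, was 36.2, 33.3 and 35.5 CPM in KO and 32.2, 26.8, 29.5 and 23.5 CPM in KO+NM1. Every KO piece was above every KO+NM1 piece, by a small margin, and the log2 fold change was 0.32 (SE 0.15, interval -0.03 to 0.68, edgeR adjusted p = 0.113). Of its exon bases, 385 (19.3%) were shared with Psmc3ip on the other strand, which had a log2 fold change of 0.42 (edgeR adjusted p = 0.194).

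Mlxip (ENSMUSG00000038342, chr5:123394798-123457932, plus strand), the glucose-sensing partner best known in skeletal muscle, was 70.7, 91.4 and 93.8 CPM in KO and 116, 53.9, 61.6 and 73.3 CPM in KO+NM1. The groups overlapped through KO piece 1 and KO+NM1 piece 1. Its log2 fold change was 0.16 (SE 0.28, interval -0.50 to 0.83, edgeR adjusted p = 0.658), and the sign was not stable, at -0.01 without KO piece 2 and -0.02 without KO piece 3. Skeletal muscle markers summed to 2152, 18473 and 14757 CPM in KO pieces 1 to 3 and 7.66 to 24.1 CPM in KO+NM1. Their part in the Mlxip level was not tested.

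Mlxipl (ENSMUSG00000005373, chr5:135089890-135138382, plus strand) was 1.53, 9.84 and 6.7 CPM in KO and 37.2, 168, 314 and 143 CPM in KO+NM1. The lowest KO+NM1 value, in piece 1, was above the highest KO value. The fitted difference was 27.5-fold (log2 fold change -4.78, SE 0.78, interval -6.61 to -2.94, edgeR adjusted p = 0.00572, exact two-sided permutation p = 0.0286), the largest among the 10 members. Within each group the piece with the lowest Mlxipl, piece 1, also had the lowest sum of white adipocyte markers, at 51.5 CPM in KO and 4256 CPM in KO+NM1. Relative to that sum, Mlxipl was 2.98, 4.61 and 7.44 CPM per 100 CPM of markers in KO and 0.874, 0.522, 0.994 and 0.625 in KO+NM1, and the part of adipocytes in its level was not tested. Of its exon bases, 235 (4.24%) were shared with Gm43500 on the other strand, which had at most 30 counts in any piece. Gm43500 was also lower in KO (log2 fold change -4.75, edgeR adjusted p = 0.00911).

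**Figure D2:**
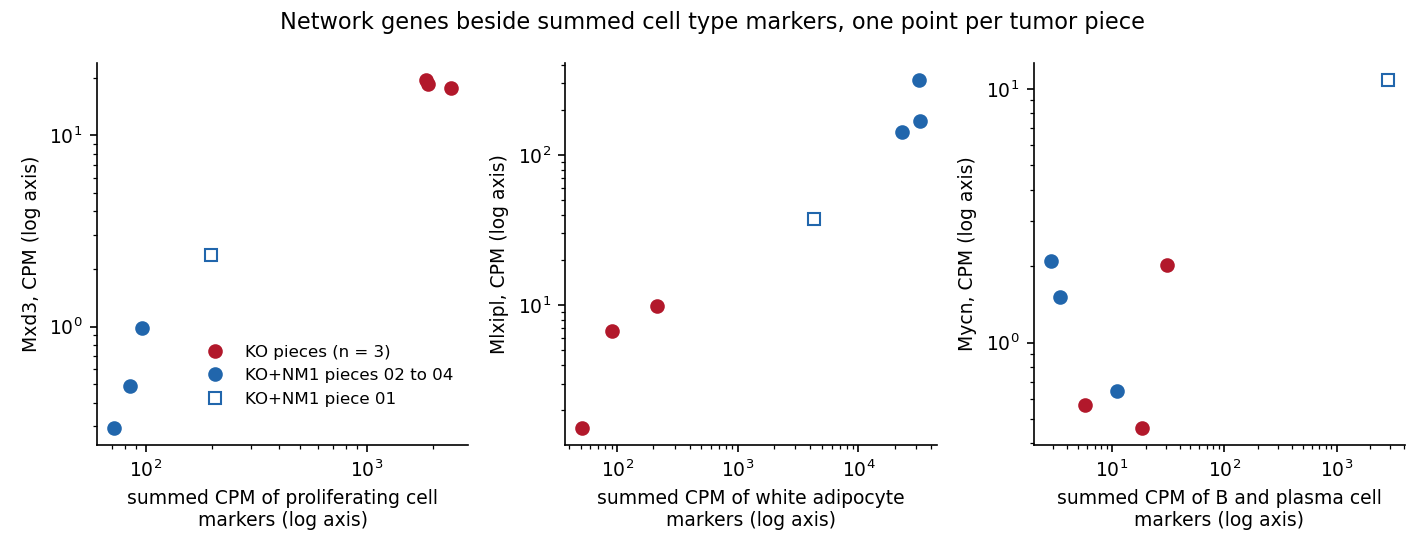
Level (CPM) of Mxd3, Mlxipl and Mycn in each tumor piece against the summed CPM of proliferating cell, white adipocyte and B and plasma cell markers, on log axes, with KO pieces in red and KO+NM1 pieces in blue (piece 1 as an open square). KO+NM1 piece 1 has the highest Mycn (10.8 CPM) and the highest B and plasma cell sum (2863 CPM), and the KO pieces have the highest Mxd3 and the lowest Mlxipl.

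**Figure D3:**
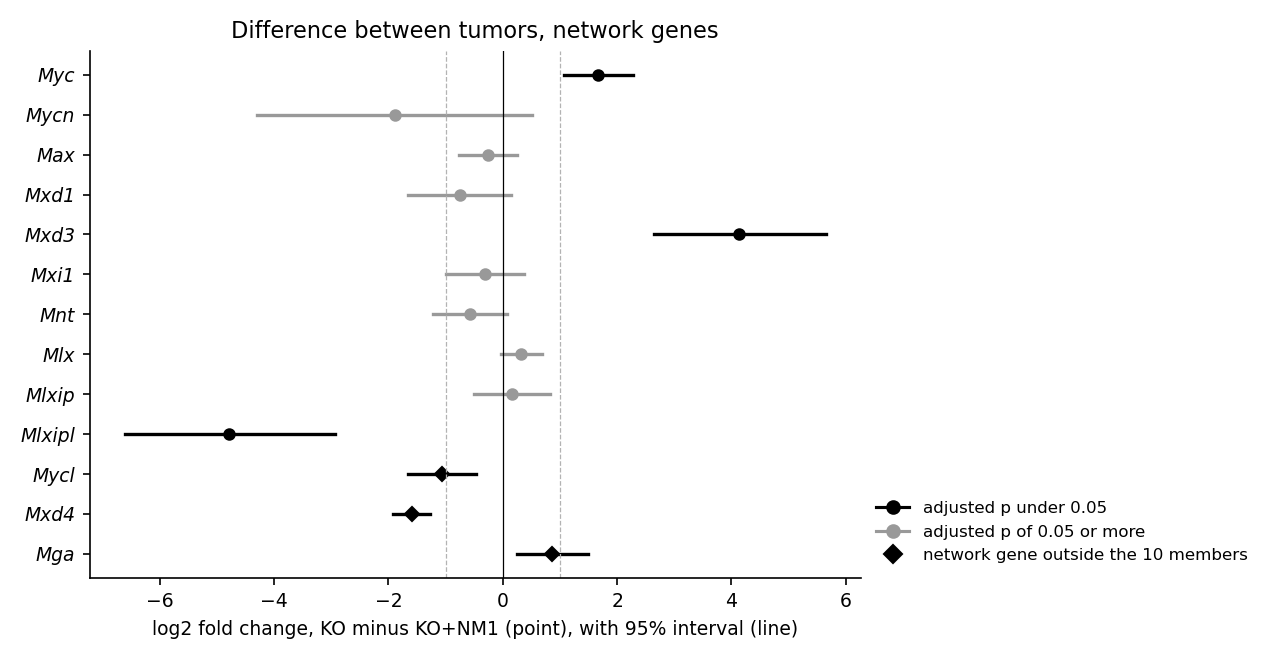
Log2 fold change of the 10 members and of Mycl, Mxd4 and Mga, KO minus KO+NM1, with 95% intervals as lines and dashed lines at a 2-fold change. Black marks an adjusted p under 0.05: Myc at 1.67, Mxd3 at 4.14 and Mga at 0.87 lie to the right, and Mlxipl at -4.78, Mycl at -1.07 and Mxd4 at -1.59 to the left.

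Levels can be compared between genes only per length, as CPM per kilobase of merged exons. In KO the order of mean levels per length was Myc at 39.7, Max at 21.4, Mlx at 17.5, Mlxip at 10.2, Mnt at 8.37, Mxd3 at 7.83, Mxi1 at 5.52, Mxd1 at 2.97, Mlxipl at 1.09 and Mycn at 0.308 CPM per kb. Neighbours whose pieces overlapped were Mlxip and Mnt, Mnt and Mxd3, and Mlxipl and Mycn. In KO+NM1 the order was Mlxipl at 29.9, Max at 25.5, Mlx at 14, Myc at 12.5, Mnt at 12.4, Mlxip at 9.16, Mxi1 at 6.85, Mxd1 at 5, Mycn at 1.14 and Mxd3 at 0.437 CPM per kb, and all neighbours overlapped other than Max and Mlx, and Mxd1 and Mycn. Myc thus led in KO and Mlxipl, ninth in KO, had the highest mean in KO+NM1, although its pieces overlapped those of Max.

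The summed level per length of the Max-bound activators, Myc and Mycn, was 49.7, 36.1 and 34.1 CPM per kb in KO and 19.4, 12.9, 8.36 and 13.8 CPM per kb in KO+NM1. The summed level of the repressors Mxd1, Mxd3, Mxi1 and Mnt was 24.5, 25 and 24.5 CPM per kb in KO and 33, 22.3, 20.8 and 22.5 CPM per kb in KO+NM1, with group means of 24.7 ± 0.284 (SD, n = 3) and 24.7 ± 5.63 (SD, n = 4). This overlap came through KO+NM1 piece 1, since KO+NM1 pieces 2 to 4 were below every KO piece. With Mxd4, a further Max-bound repressor outside the 10 members, added to the sum after its values were seen, the groups no longer overlapped, at 32.6, 34.2 and 34.1 CPM per kb in KO and 56.9, 51.5, 48.5 and 49.8 CPM per kb in KO+NM1. Within the sum of Mxd1, Mxd3, Mxi1 and Mnt, Mxd3 was 30.4, 32.7 and 32% in KO and 3.03, 0.923, 0.601 and 1.85% in KO+NM1. The ratio of activators to repressors was 2.03, 1.45 and 1.39 in KO and 0.587, 0.579, 0.402 and 0.613 in KO+NM1, a difference of 1.57 in mean log2 ratio. With the further network genes Mycl and Mxd4 added, a choice made after their values were seen, the ratios were 1.56, 1.11 and 1.04 in KO and 0.388, 0.315, 0.233 and 0.341 in KO+NM1, a difference of 1.95.

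Max relative to the sum of its 6 partners among the members was 0.284, 0.345 and 0.375 in KO and 0.68, 0.629, 0.678 and 0.673 in KO+NM1 per length. The groups were apart on this ratio, while Max itself overlapped. With Mycl and Mxd4 added to the partners the gap was smaller, at 0.253, 0.292 and 0.316 in KO and 0.451, 0.327, 0.331 and 0.366 in KO+NM1, and the partner sums then overlapped. The difference in mean log2 ratio was then -0.36. For Mlx the order was the opposite, with only Mlxip and Mlxipl counted as its partners and any other partner left out. The summed level of Mlxip and Mlxipl was 8.76, 12.8 and 12.5 CPM per kb in KO and 20.7, 36.8, 64.1 and 34.6 CPM per kb in KO+NM1, and Mlx relative to that sum was 2.07, 1.31 and 1.42 in KO and 0.779, 0.364, 0.23 and 0.339 in KO+NM1. Mlxipl was 3.16, 13.9 and 9.7% of the pair in KO and 32.5, 82.4, 88.5 and 74.6% in KO+NM1. These ratios compare RNA levels and say nothing of the dimers formed.

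**Figure D4:**
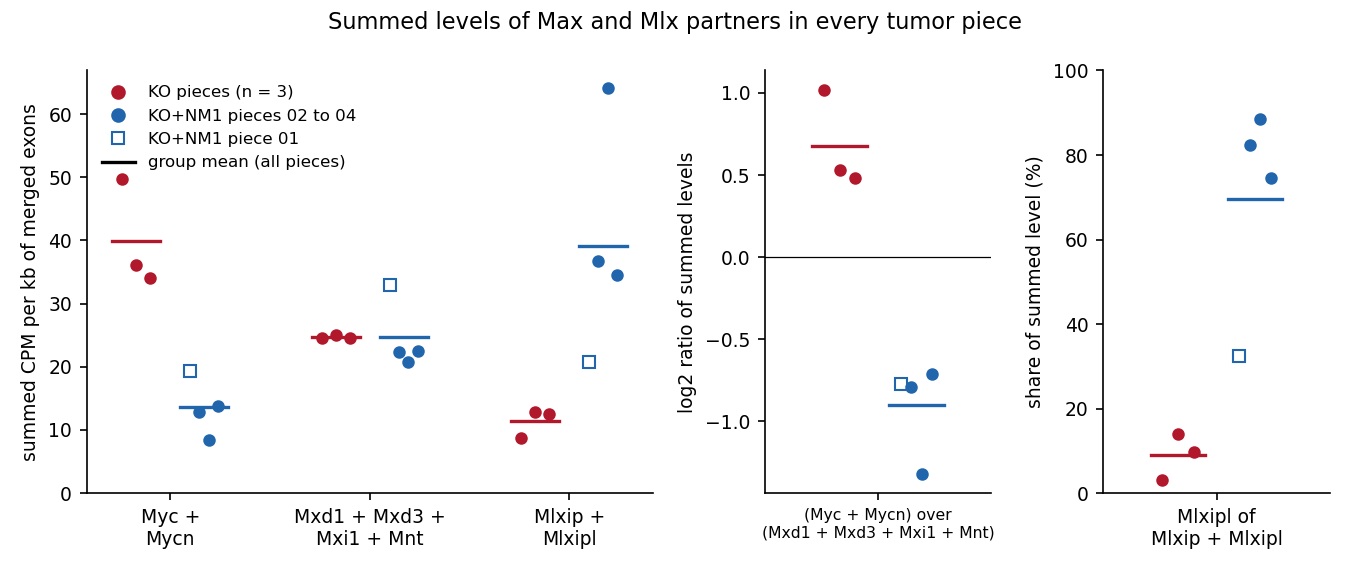
Left, summed level of the activators (Myc and Mycn), the repressors (Mxd1, Mxd3, Mxi1 and Mnt) and the Mlx partners (Mlxip and Mlxipl) in each tumor piece, as CPM per kilobase of merged exons, with group means as lines; middle, log2 ratio of activators to repressors; right, percent of Mlxipl in the Mlx partner sum. The activator sum is 34.1 to 49.7 in KO and 8.36 to 19.4 in KO+NM1, the sums of these 4 repressors, without Mxd4, overlap through KO+NM1 piece 1 (33, open square), and Mlxipl is 3.16 to 13.9% in KO and 32.5 to 88.5% in KO+NM1.

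Among all tested genes, those whose centred log2 CPM differed least from Myc over the 7 libraries were Tma16 (root mean square difference 0.0717) and Nudcd1 (0.112). Efcab11 (0.233) was near to Mxd3, and those nearest to Mlxipl were Ybx2 (0.255) and Slc1a1 (0.336), a glutamate transporter. Between members the smallest difference was that of Max and Mnt (0.171), followed by Mxd1 and Mnt (0.244) and Mlxip and Max (0.27), and all 4 of these genes were highest in KO+NM1 piece 1.

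Of the 3 further network genes, Mxd4 and Mycl fell and Mga rose in KO by the adjusted p. By the same threshold 24.5% of all tested genes fell and 25.7% rose. Mxd4, another Sin3-recruiting Max partner, was 68.4, 78.3 and 81.4 CPM in KO and 202, 247, 235 and 231 CPM in KO+NM1 (log2 fold change -1.59, SE 0.13, edgeR adjusted p = 0.000434). Its groups lay far apart, and unlike Mxd1 and Mnt it was not raised in KO+NM1 piece 1. Mycl, a further Myc paralogue, was 4.13, 7.58 and 5.78 CPM in KO and 10.8, 13.3, 12 and 12.8 CPM in KO+NM1 (log2 fold change -1.07, SE 0.25, edgeR adjusted p = 0.0127). Mga, which joins Max in a Polycomb-type repressor complex, was 98.9, 67.9 and 68.4 CPM in KO and 62.6, 34.3, 35.6 and 39.1 CPM in KO+NM1 (log2 fold change 0.87, SE 0.26, edgeR adjusted p = 0.0283), below a 2-fold change.

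Cofactors of the network were higher in KO or did not pass the test. Of 20 listed, 9 rose by both thresholds and 13 by the adjusted p alone, against 17.1% and 25.7% of all tested genes. None fell, against 20.3% and 24.5%, and the median log2 fold change was 0.91 against 0.00 over all tested genes. The activating cofactors stood at 6 of 8 by both thresholds, led by Ruvbl1, an ATPase of the TIP60 and INO80 complexes that binds Myc, at 74.3, 72.4 and 69.1 CPM in KO and 30.6, 23.8, 20.9 and 20.7 CPM in KO+NM1 (log2 fold change 1.58, SE 0.17, edgeR adjusted p = 0.000688). Of the 8 repressing cofactors 4 rose by the adjusted p. Sap30, a subunit of the Sin3 complex, passed both thresholds (log2 fold change 1.51, SE 0.18, edgeR adjusted p = 0.001), and the deacetylase Hdac2 (0.92, edgeR adjusted p = 0.00136) and the corepressor Ncor1 (0.91, edgeR adjusted p = 0.00146) lay just under 2-fold, with Sin3b at 0.42 (edgeR adjusted p = 0.0324). Sin3a itself had a log2 fold change of 0.30 (SE 0.23, edgeR adjusted p = 0.322) and Zbtb17, the Miz1 protein through which Myc represses, one of -0.02 (SE 0.26, edgeR adjusted p = 0.952). Of 4 subunits of the Max and Mga complex, L3mbtl2 and Pcgf6 rose, at log2 fold changes of 1.35 and 1.37. Proliferating cell markers moved the same way as the cofactors (7 of 7 higher in KO, 1850 to 2412 against 71.7 to 197 CPM in sum), and their part was not tested.

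Of 14 genes whose products act on Myc protein, 8 rose, 1 fell and 5 passed no threshold (median log2 fold change 1.05). By both thresholds 17.1% of all tested genes rose and 20.3% fell. Plk1, a mitotic kinase known to stabilize Myc, was 113, 96.2 and 100 CPM in KO and 5.11, 2.89, 1.33 and 2.59 CPM in KO+NM1 (log2 fold change 5.11, SE 0.39, edgeR adjusted p = 0.000384). Cip2a, an inhibitor of the phosphatase PP2A that protects Myc from degradation, was 73.9, 67.8 and 68.9 CPM in KO and 3.54, 2.4, 2.12 and 3.21 CPM in KO+NM1 (log2 fold change 4.63, SE 0.20, edgeR adjusted p = 0.000185). Ppp2r5a, the PP2A subunit that directs the phosphatase to Myc, was the gene that fell, at 75, 84 and 85 CPM in KO and 283, 847, 1049 and 633 CPM in KO+NM1 (log2 fold change -3.11, SE 0.41, edgeR adjusted p = 0.00181). Fbxw7, the ubiquitin ligase receptor for phosphorylated Myc, was 23, 28.5 and 23.5 CPM in KO and 30.5, 18.2, 22.3 and 25.6 CPM in KO+NM1 (log2 fold change 0.05, SE 0.21, edgeR adjusted p = 0.864). Plk1, Aurka and Skp2 are themselves genes of cycling cells, and the proliferating cell markers given above moved the same way. White adipocyte markers moved the same way as Ppp2r5a, at 51.5 to 213 CPM in sum in KO and 4256 to 32191 CPM in KO+NM1. The part of either cell type in these levels was not tested.

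Of 23 genes known as direct targets that rise with Myc, 18 rose and 1 fell by both thresholds, against 17.1% and 20.3% of all tested genes. Their median log2 fold change was 1.64. Ncl (nucleolin) was 1672, 1339 and 1349 CPM in KO and 485, 321, 313 and 359 CPM in KO+NM1 (log2 fold change 1.98, SE 0.22, edgeR adjusted p = 0.000836). Cad, which starts pyrimidine synthesis, had a log2 fold change of 1.64 (SE 0.20, edgeR adjusted p = 0.0011), and Odc1, which starts polyamine synthesis, one of 1.14 (SE 0.19, edgeR adjusted p = 0.00297). The largest rises were those of E2f1, a cell cycle transcription factor (2.97, SE 0.24, edgeR adjusted p = 0.000379), and Shmt2, the mitochondrial serine hydroxymethyltransferase (2.72, SE 0.24, edgeR adjusted p = 0.000472). Ccnd2, encoding cyclin D2, fell (-1.26, SE 0.21, edgeR adjusted p = 0.00312). Many of these genes also serve cell division, and the part of cycling cells in their levels was not tested.

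Of the induced targets, 18 matched a promoter window and 5 of those held the E-box, against 11% of the tested genes with a window. Their log2 fold changes were 2.06 for Cdk4, 0.93 for Eif4e, 1.04 for Hspd1, -0.29 for Ldha and 1.89 for Nme1. Ldha did not pass the adjusted p (edgeR adjusted p = 0.569), and Eif4e lay under a 2-fold change. Cdk4, the cyclin D-dependent kinase, held 4, the nearest of which are shown as the example of a target with several sites (plus strand, chr10:127063425-127063454 and chr10:127063512-127063541, starting 98 bases and 11 bases before the gene start).
Cdk4 site at 98: atagcaacaggtCACGTGgccgtcagggcc
Cdk4 site at 11: aagggtgaagatCACGTGtccagaacgtcc
Cdk4 was 433, 387 and 369 CPM in KO and 116, 90.6, 79.4 and 95.2 CPM in KO+NM1 (log2 fold change 2.06, SE 0.17, edgeR adjusted p = 0.000351), and it was named here for its sites after its value was known.

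Of the 6 genes known to be repressed through Myc, 2 were higher and 1 lower by both thresholds, against 17.1% and 20.3% of all tested genes. By the adjusted p alone it was 2 and 2, against 25.7% and 24.5%, and the median log2 fold change was 0.19. Ndrg1, a stress-responsive gene of differentiated cells, fell (42.2 to 44.6 CPM in KO and 113 to 169 CPM in KO+NM1, log2 fold change -1.74, SE 0.17, edgeR adjusted p = 0.000673). Cdkn1a, the p21 inhibitor of the cell cycle, rose (130 to 169 CPM in KO and 34.1 to 78.5 CPM in KO+NM1, log2 fold change 1.50, SE 0.29, edgeR adjusted p = 0.00489).

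**Figure D5:**
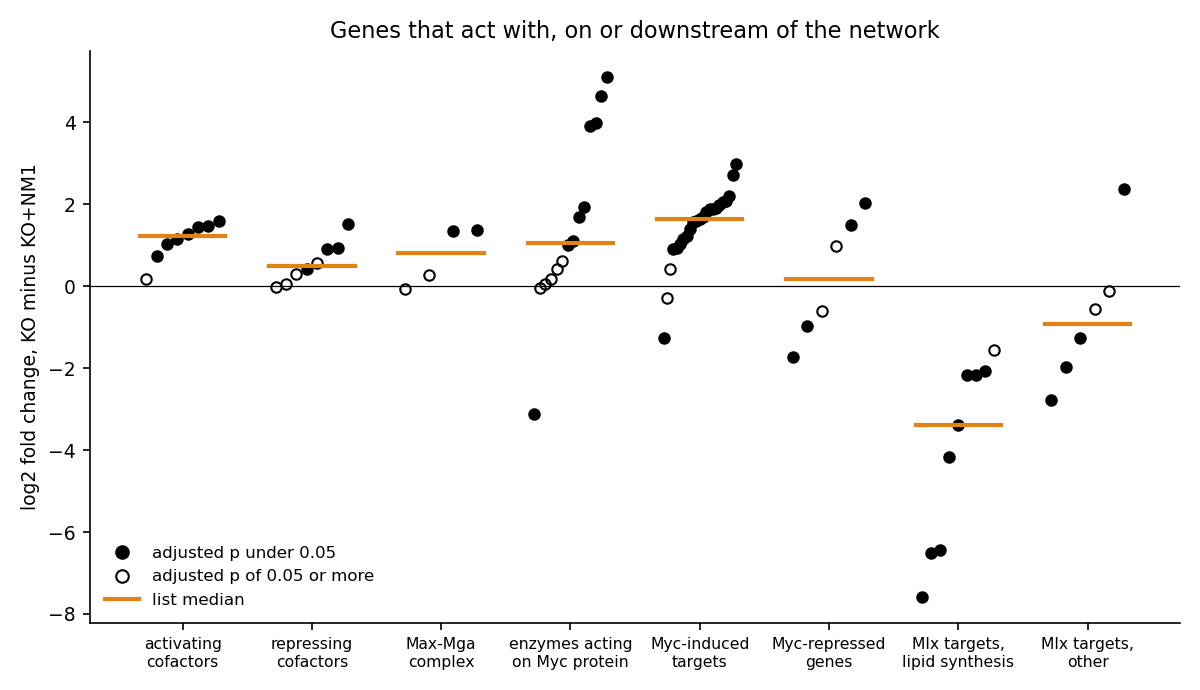
Log2 fold changes, KO minus KO+NM1, of the genes in the cofactor, Myc stability, Myc target and Mlx partner target lists, with a point per tested gene, filled where the adjusted p was under 0.05, and a line at the median of each group of genes. The Myc induced targets have a median of 1.64 and the lipid synthesis targets of the Mlx partners one of -3.40.

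Of 18 genes known as targets of Mlxip or Mlxipl, 15 had enough reads to be tested. By both thresholds 11 fell and 1 rose, against 20.3% and 17.1% of all tested genes, with a median log2 fold change of -2.16. Of the 9 lipid synthesis genes 8 fell, with a median of -3.40. Scd1, the stearoyl-CoA desaturase, was 139, 228 and 121 CPM in KO and 3423, 17472, 24258 and 14071 CPM in KO+NM1 (log2 fold change -6.51, SE 0.65, edgeR adjusted p = 0.0014). Pnpla3, a lipid droplet hydrolase, was 0.2, 5.32 and 0.528 CPM in KO and 79.6, 435, 659 and 366 CPM in KO+NM1 (log2 fold change -7.58, SE 1.08, edgeR adjusted p = 0.00539). In both genes KO+NM1 piece 1 was the lowest and piece 3 the highest of its group, the same order as for Mlxipl. White adipocyte markers moved with these genes (9 of 9 lower in KO), and their part was not tested.

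The glucose-sensing targets differed from each other. Txnip, which restrains glucose uptake and is the best known target of Mlxip, was 133, 196 and 199 CPM in KO and 583, 1527, 1408 and 1333 CPM in KO+NM1 (log2 fold change -2.78, SE 0.36, edgeR adjusted p = 0.00161). Arrdc4, its relative and also a target of Mlxip, was 36.7, 41.2 and 40.6 CPM in KO and 42.9, 42.8, 36.3 and 48.6 CPM in KO+NM1 (log2 fold change -0.11, SE 0.14, interval -0.44 to 0.22, edgeR adjusted p = 0.535). Rgs16, a regulator of G protein signalling, was the listed target that rose, at 30.6, 21.1 and 25.1 CPM in KO and 8.86, 4.07, 3.85 and 2.92 CPM in KO+NM1 (log2 fold change 2.37, SE 0.40, edgeR adjusted p = 0.00313). In the promoter windows the E-box was present for 3 of 15 matched targets, Arrdc4, Fgf21 and Khk, against 11% of the tested genes with a window. It was present for none of the 7 matched lipid synthesis genes. Only the exact letters CACGTG were searched, so this does not show that binding sites are absent.

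The remaining marker lists are given for the same libraries. Macrophage markers summed to 837 to 948 CPM in KO and 251 to 359 CPM in KO+NM1 (5 of 5 rose) and endothelial markers to 152 to 173 and 850 to 1113 CPM (4 of 4 fell). Brown adipocyte markers summed to 7.3 to 34.7 and 400 to 3499 CPM (4 of 6 fell), with the highest sum in KO+NM1 piece 3, which also had the highest Mlxipl. Mammary epithelium markers summed to 3.57 to 66 and 416 to 2782 CPM (4 of 6 tested fell, and Wap had at most 2 counts in any piece), and keratinocyte markers to 3.86 to 1209 and 56.1 to 420 CPM (1 of 4 tested rose), with overlap. The part of these cells in the network's levels was not tested.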

How the data were processed

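RNA of 3 KO and 4 KO+NM1 tumor pieces was sequenced. The deposited values are raw counts of reads per Ensembl gene, made by the authors with Trimmomatic 0.36, HISAT2 2.0.4, SAMtools 0.1.19 and HTSeq on GRCm38. The annotation release and strand setting are not given in the sources used here. Symbols, positions and exon lengths came from GENCODE M21 (46005 of 46603 genes matched). KO was compared with KO+NM1 in edgeR 4.0.16 (R 4.3.3), with TMM factors, filterByExpr (minimum count 10) and the quasi-likelihood test, leaving 16887 genes, with Benjamini-Hochberg adjustment over all of them. Thresholds were an adjusted p of 0.05 and a 2-fold change, after the study's methods. CPM values are TMM-normalized. The self-test used simulated counts. Intervals cover the spread between pieces, and the 3-count floor covers counting error only. Pieces of 1 tumor are not separate animals, so p-values measure only their spread, which was a biological coefficient of variation of 46.7%. All libraries differed beyond sampling noise (chi-square over degrees of freedom at least 35.2). Pieces with the same number were not paired.

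Named genes were the members, Mycl, Mxd4 and Mga, the 2 largest rises and 2 largest falls of each list called by both rules and averaging 1 CPM or more, 10 further genes whatever their values, and the 2 genes most like each called member, of which 1 is not reported here. Genes named beside these (Cdk4, L3mbtl2, Pcgf6, Aurka, Skp2, Hdac2, Ncor1, Sin3b and those named for promoter sites or overlaps) and the levels per 100 CPM of markers were chosen after values were seen. The members and lists were chosen with earlier results of these data known. Alternatives were other size factors, filters, DESeq2 1.42.0, limma 3.58.1 (voom with quality weights), a replicate block and leaving out each piece.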

Additional observations from a re-analysis of the deposited data

Results flagged for a closer look

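Of 100 sets of 4 KO+NM1 values examined, 14 had a lowest or highest piece whose gap to the next, over the range of the group, was above Dixon's 95% critical value for 4 samples, where chance gives about 1 in 20, or 5.00. In 12 of the 14 the piece was KO+NM1 piece 1. Among members these were Mxd1, highest in that piece (ratio 0.879), and Mxi1, lowest in it (0.898). The same piece was highest for the summed level of Mxd1, Mxd3, Mxi1 and Mnt (0.865) and for the percentage of Mycn in the sum of Myc and Mycn (0.842). Among cofactors and stability genes it was highest for Kat2a (0.882), Sin3a (0.837), Hdac1 (0.833), Usp36 (0.904) and Usp37 (0.86), and among targets it was highest for Rcc1 (0.954) and Bop1 (0.957) and lowest for Txnip (0.858). Piece 3 was the lowest for Srm (0.855) and for the log2 ratio of Myc and Mycn to Mxd1, Mxd3, Mxi1 and Mnt (0.865).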

How the results depend on the processing

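Myc (log2 fold change 1.37 to 1.82), Mxd3 (3.83 to 5.08) and Mlxipl (-5.45 to -4.29) kept their direction and an adjusted p under 0.05 in every alternative that tested them, which was 15 for Myc and Mlxipl and 14 for Mxd3, untested where at least 10 counts were required in every library. Of 149 values of single members under alternatives, 140 kept both direction and side of the threshold. With limma voom and quality weights, Mxi1 at -0.60 (adjusted p = 0.00162), Mnt at -0.28 (adjusted p = 0.0488), Mlx at 0.39 (adjusted p = 0.00431) and Mlxip at 0.59 (adjusted p = 0.00333) also passed, making 7 members, and without KO+NM1 piece 1 it was 6 (Mxd1, Mxi1 and Mnt added). Leaving out a piece at a time gave -0.99 to -0.41 for Mxd1, -0.64 to -0.22 for Mxi1, -0.74 to -0.40 for Mnt, -2.97 to -0.61 for Mycn and -0.02 to 0.31 for Mlxip, which reversed without KO piece 2 (-0.01) and KO piece 3 (-0.02). Mycl and Mxd4 were 1 to 2 genes past both thresholds, 1 without KO piece 1. After the data were seen, Mycl and Mxd4 were added to the sums: the difference in log2 ratio of activators to repressors was 1.95 in place of 1.57, that of Max to its partners -0.36, smaller in size than with the members alone, and that of the log2 repressor sum (Mxd4 alone added) -0.62 in place of 0.03. For the members alone, the differences without KO+NM1 piece 1 were 1.61 (activators to repressors), -0.99 (Max to its partners) and 0.18 (repressor sum). The cause of these shifts was not tested.

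Scaling by library size alone moved the median of all tested genes to 0.17, and Myc to 1.82, Mxd3 to 4.23 and Mlxipl to -4.50, with no member's direction turned. Without KO+NM1 piece 1, 8 cofactors, 8 stability genes, 21 Myc targets and 12 Mlx partner targets were called, against 9, 9, 22 and 12 with it. The called Mlx partner targets were 8 of 15 without any 1 KO piece and with the replicate block, against 12. Pairs with the same piece number had correlations of deviations of 0.0802, 0.102 and -0.0165, so the numbers do not pair them, and the replicate block gave 1.73 for Myc, 4.65 for Mxd3 and -4.75 for Mlxipl, 3 members called as without it. Mxd3 in KO+NM1 rests on 6 to 65 counts a piece, and Mycn on 13 to 58 in all pieces but KO+NM1 piece 1.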
